A study of Mus musculus with 2 samples.

Results

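The mitochondrial carrier family (Slc25) is described here in mouse leukaemia cells. Its members were taken as the protein-coding genes of the deposited table whose symbol begins with Slc25a, which gave 47 genes among 45318. That rule uses no measured value, though it was chosen with earlier results of these data known. The cells came from C57Bl/6 mice with leukaemia driven by MLL/AF9, an oncogene formed by fusion of 2 genes in some acute myeloid leukaemias, and were collected from bone marrow as GFP-positive cells by flow sorting. They form 2 libraries of poly(A)-selected RNA, 1 from brequinar-treated and 1 from vehicle-treated mice, and both carry MLL/AF9 and GFP. Brequinar inhibits dihydroorotate dehydrogenase, an enzyme of pyrimidine synthesis that sits in the mitochondrial inner membrane. The dose, the length of treatment, the age of the mice and how many mice each library came from are not stated in these sources.

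Mitochondrial carriers are small proteins, encoded in the nucleus, that mostly span the inner membrane of the mitochondrion and exchange nucleotides, phosphate, organic acids, amino acids and cofactors between matrix and cytosol. The ADP/ATP carriers export ATP made by oxidative phosphorylation, and other members link matrix and cytosolic metabolism, as in the malate-aspartate shuttle and the export of citrate for lipid synthesis. Mitoferrins bring iron to the matrix, where haem and iron-sulphur clusters are assembled, and are best known from developing red cells.

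With 1 library per treatment there is no replicate check on any difference below, and no p-value is given. Gene counts summed to 47950714 in the brequinar library and 47935476 in the vehicle library, and are given as CPM, counts scaled to a common library size after TMM, a factor that aligns the bulk of genes between libraries. Intervals are exact (Clopper-Pearson) 95% intervals of the ratio of the 2 libraries. They cover counting error only, not the spread between mice, and amplified reads are not independent molecules. The word called marks genes whose ratio reached 2-fold in either direction, on a log2 scale after a prior count of 2 was added. In bulk RNA, fewer cells of a type and less RNA per cell cannot be told apart. All 8 markers of leukaemic myeloid cells were detected in both libraries. Their summed level was 5639.8 CPM in the brequinar library and 10384.5 CPM in the vehicle library. Of these markers, 5 had log2 ratios above 0 and 3 below (median 0.25), and the largest difference in that sum was in Mpo. Mpo (979 CPM in the brequinar library, 5912 CPM in the vehicle library) and Cebpa (30.3 and 75.4 CPM in the same order) were at least 2-fold lower, and Itgam (1234 and 399 CPM) and Cd33 (648 and 213 CPM) were at least 2-fold higher. Markers of maturing neutrophils were at least 2-fold higher in 11 of 11 cases, led by Mmp9, S100a9, S100a8 and Lcn2, and none was at 0. Their summed level was 23751 CPM in the brequinar library and 1434 CPM in the vehicle library. The part of this difference in the values below was not tested.

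Most carriers differed little between the libraries. Of the 47 members, 44 had at least 1 count, and 35 averaged 1 CPM or more across the libraries, the minimum for a comparison. That is 74.5% of the members, against 48.9% of all protein-coding genes in the table. Of those 35, 1 was called higher with brequinar (Slc25a24), 4 were called lower (Slc25a42, Slc25a4, Slc25a35 and Slc25a1) and 30 lay within 2-fold. Among all 11504 genes compared, 6.45% were called higher and 4.4% were called lower, and for the 35 members the shares were 2.86% and 11.4%, which rest on 1 and 4 genes. The members' median log2 ratio was -0.05, with quartiles at -0.37 and 0.18, against a median of 0.00 and quartiles at -0.30 and 0.29 for all genes compared. Summed over all 47 members, the family held 2360.0 CPM in the brequinar library and 2586 CPM in the vehicle library. Of these sums, Slc25a5 held 827 and 982 CPM and Slc25a3 held 229 and 338 CPM, in the same order.

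**Figure D1:**
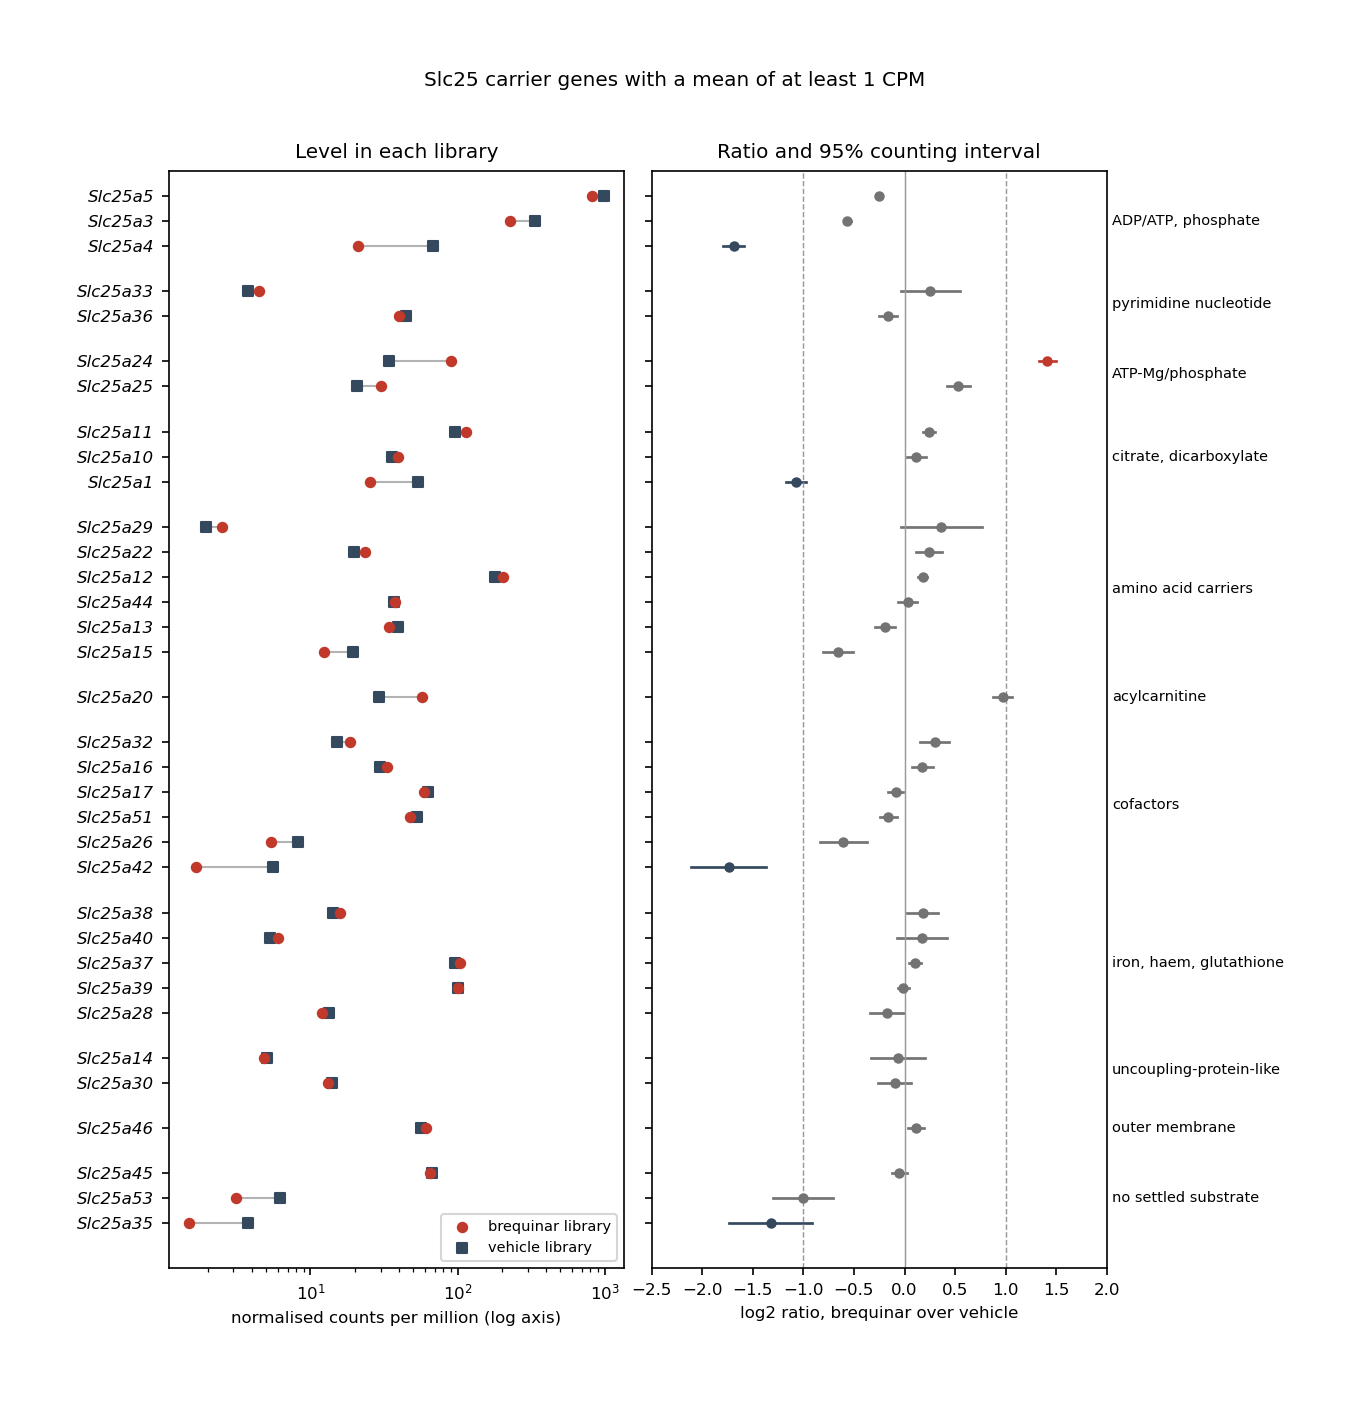
Levels (left, normalised CPM on a log axis, circles for the brequinar library and squares for the vehicle library) and log2 ratios of brequinar over vehicle with 95% counting intervals (right, no prior count) of the carriers compared, 1 of which is not drawn, grouped by role. Dashed lines mark 2-fold. Slc25a24 lies beyond the upper line, and Slc25a4, Slc25a42, Slc25a35 and Slc25a1 lie beyond the lower line. Slc25a53, 2.00-fold lower without the prior count, lies just past the lower line and was not called.

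Promoters are shown for the called carriers that matched a RefSeq window, since these genes passed 2-fold. Each window runs from 250 bases before to 50 bases after the RefSeq start (GRCm38.p6), along the gene's own strand. Capitals mark 3 short motifs on either strand, the E-box CACGTG, the GC box GGGCGG and the CCAAT box CCAAT, none of which overlap each other in these windows. Slc25a24 lies on the plus strand of chromosome 3 (window chr3:109122899-109123198), Slc25a1 on the minus strand of chromosome 16 (chr16:17928170-17928469), and Slc25a4 and Slc25a42 on the minus strand of chromosome 8 (chr8:46211013-46211312 and chr8:70212232-70212531).
Slc25a24: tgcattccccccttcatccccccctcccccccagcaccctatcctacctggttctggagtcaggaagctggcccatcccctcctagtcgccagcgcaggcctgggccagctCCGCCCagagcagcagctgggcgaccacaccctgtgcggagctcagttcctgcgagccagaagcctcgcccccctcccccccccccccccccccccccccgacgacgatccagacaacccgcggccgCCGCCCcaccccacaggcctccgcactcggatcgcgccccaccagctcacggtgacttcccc
Slc25a42: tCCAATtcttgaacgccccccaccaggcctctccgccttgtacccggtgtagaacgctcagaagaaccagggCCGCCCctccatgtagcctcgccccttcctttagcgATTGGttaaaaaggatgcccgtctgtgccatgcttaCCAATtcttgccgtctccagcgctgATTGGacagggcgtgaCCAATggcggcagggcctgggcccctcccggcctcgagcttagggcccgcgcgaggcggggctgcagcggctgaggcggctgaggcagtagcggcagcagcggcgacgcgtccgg
Slc25a4: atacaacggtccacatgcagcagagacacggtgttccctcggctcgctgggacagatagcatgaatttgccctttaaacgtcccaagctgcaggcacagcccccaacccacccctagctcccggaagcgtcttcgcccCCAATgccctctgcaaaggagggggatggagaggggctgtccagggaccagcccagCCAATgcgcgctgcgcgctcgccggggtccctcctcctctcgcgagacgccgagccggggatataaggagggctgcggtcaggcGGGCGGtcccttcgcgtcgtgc
Slc25a1: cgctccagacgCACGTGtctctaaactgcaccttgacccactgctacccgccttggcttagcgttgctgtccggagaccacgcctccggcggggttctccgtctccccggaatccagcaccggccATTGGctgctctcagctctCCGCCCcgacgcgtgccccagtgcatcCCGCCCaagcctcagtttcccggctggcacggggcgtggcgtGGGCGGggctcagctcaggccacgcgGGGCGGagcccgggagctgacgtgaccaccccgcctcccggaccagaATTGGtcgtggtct

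The window of Slc25a42 held 5 CCAAT boxes and 1 GC box. Slc25a4 held 2 CCAAT boxes and 1 GC box, and Slc25a1 held 2 CCAAT boxes, 4 GC boxes and 1 E-box. The window of Slc25a24, the carrier that was higher, held 2 GC boxes and neither of the other 2 motifs. RefSeq windows were matched for 36 members, some with several starts, which gave 46 windows. The members compared held 35 of these windows, from 27 genes, and they are set against the 11103 windows of all genes compared. Windows and not genes are counted, and some windows of 1 gene overlap. A GC box was found in 91.4% of the windows of compared members, against 62.1% of the windows of all genes compared. CpG-rich windows (at least 50% GC and at least 0.6 of the CpG pairs expected from base content) went the other way, at 51.4%, against 66.7%. The median GC was 60.7% in both. A CCAAT box was found in 48.6%, against 38.5%, and an E-box in 20%, against 10.3%. A TATA box (TATAAA) was in none of the 35, against 6.90%. The ETS core CCGGAAG was found in 17.1%, against 18.9%, and the GATA core AGATAA in 8.57%, against 6.42%. Over all 46 windows, set against all 32851 windows, the GC box was found in 82.6%, against 35.7%, the CCAAT box in 47.8%, against 37.4%, and the E-box in 17.4%, against 7.15%. The TATA box was found in 4.35%, against 13.6%, the ETS core in 15.2%, against 8.86%, and the GATA core in 6.52%, against 11.2%. CpG-rich windows made up 45.7% of the 46, against 33.5% of all windows. The NRF1 core GCGCATGCG and the sterol element TCACCCCAC were in none of the 46, against 1.75% and 0.551% of all windows. These matches describe letters in the windows only.

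The ADP/ATP and phosphate carriers, which bring phosphate and ADP to ATP synthase and export ATP, had the highest summed level of any role, at 1423 TPM in the brequinar library and 2010.1 TPM in the vehicle library (TPM is the level per exon length, scaled to the same total in each library). In normalised counts their sum was 1077 CPM in the brequinar library and 1389 CPM in the vehicle library. Slc25a4 (ENSMUSG00000031633.4, chromosome 8, 46206797 to 46211284, GRCm38), the ADP/ATP carrier typical of heart and muscle, had 983 counts or 21.2 CPM in the brequinar library, against 3374 counts or 68.2 CPM in the vehicle library. It was 3.22-fold lower (interval 3.0003 to 3.463), and its whole interval lay beyond 2-fold. Slc25a5, the ADP/ATP carrier of proliferating cells, had 827 CPM in the brequinar library and 982 CPM in the vehicle library, 1.19-fold lower (interval 1.17 to 1.20) and within 2-fold. Per exon length, Slc25a4 made up 1.76% of the level of this pair in the brequinar library and 4.63% in the vehicle library.

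Slc25a3, the phosphate and copper carrier that supplies ATP synthase, had 229 CPM in the brequinar library and 338 CPM in the vehicle library, 1.48-fold lower (interval 1.44 to 1.52). Slc25a31, an ADP/ATP carrier of the testis, had 1 count in the brequinar library and 3 counts in the vehicle library, too few to compare. The 3 ADP/ATP and phosphate carriers compared therefore all had log2 ratios below 0, and only Slc25a4 passed 2-fold. Processed pseudogenes copy Slc25a5, and the deposited table lists multimapping reads on a line apart from the genes, so the level of Slc25a5 is uncertain. The annotated copy Slc25a5-ps had 12 counts in each library.

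Levels of different genes are ranked in TPM. This scale uses each library's total and not TMM, so ratios between the libraries were not taken from it. In TPM, Slc25a5 stood at 1294 TPM in the brequinar library and 1747 TPM in the vehicle library, which was 57.0% and 59.8% of the family's summed TPM in those libraries. The next by TPM in the vehicle library were Slc25a3 (106 TPM in the brequinar library, 178 TPM in the vehicle library) and Slc25a11 (139 and 133 TPM in the same order). They were followed by Slc25a39 (93.8 and 107 TPM). Slc25a4 stood at 23.2 TPM in the brequinar library, where it was number 16 among the members by level, and at 84.8 TPM in the vehicle library, where it was number 5. Slc25a1 was number 10 in the brequinar library, at 30.4 TPM, and number 6 in the vehicle library, at 72.6 TPM. Slc25a24 was number 6 in the brequinar library, at 68.2 TPM, and number 15 in the vehicle library, at 29.2 TPM. Exon lengths are those of the annotation, and the isoforms these cells use were not measured, so levels and shares per length depend on the length used.

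**Figure D2:**
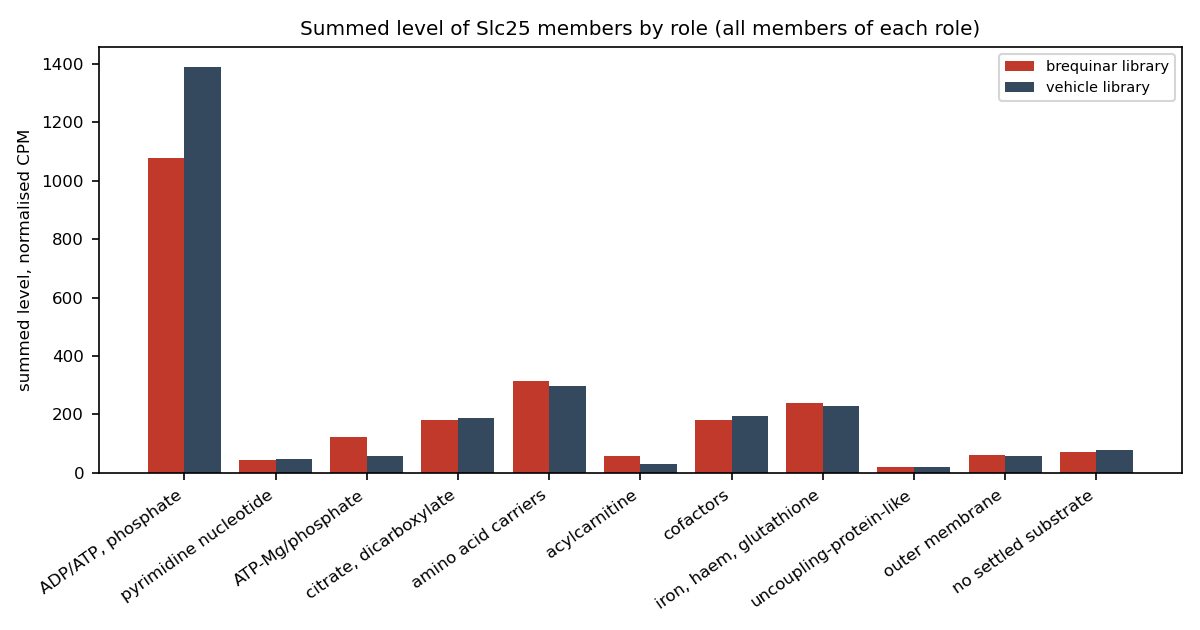
Summed level of the members of each role, in normalised CPM (brequinar library left bar, vehicle library right bar, 1 library each and no error bars). The ADP/ATP and phosphate carriers reach 1077 and 1389 CPM, and the ATP-Mg/phosphate carriers 121 and 56.0 CPM.

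The pyrimidine nucleotide carriers move nucleotides of the pathway that brequinar blocks across the inner membrane, and neither of them passed 2-fold. Slc25a33 encodes a carrier of pyrimidine nucleotides. It had 209 counts or 4.50 CPM in the brequinar library and 187 counts or 3.78 CPM in the vehicle library. Its ratio of 1.19 had an interval of 0.973 to 1.46, which includes 1. Slc25a36, its close relative, had 39.7 CPM in the brequinar library and 44.5 CPM in the vehicle library, 1.12-fold lower (interval 1.05 to 1.19). Per length, Slc25a33 made up 36.5% of the level of this pair in the brequinar library and 30.2% in the vehicle library. With the longest transcript as the length its share was smaller. On that scale Slc25a33 had 4.73 TPM and Slc25a36 15.1 TPM in the brequinar library, and 4.40 and 18.7 TPM in the vehicle library. Dhodh, which encodes the inhibited enzyme, had 26.3 CPM in the brequinar library and 37.5 CPM in the vehicle library.

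The ATP-Mg/phosphate carriers adjust the adenine nucleotide content of the matrix, and most of them respond to calcium. As a sum these carriers were higher, at 121 CPM in the brequinar library and 56.0 CPM in the vehicle library. Slc25a24 (ENSMUSG00000040322.7, chromosome 3, 109123149 to 109168457) had 4219 counts or 90.8 CPM in the brequinar library, against 1691 counts or 34.2 CPM in the vehicle library. It was 2.66-fold higher (interval 2.51 to 2.81), so the whole interval lay beyond 2-fold. Slc25a25, a relative with the same transport activity, had 30.1 CPM in the brequinar library and 20.8 CPM in the vehicle library, a ratio of 1.45 (interval 1.33 to 1.57), and it overlaps Naif1 on the other strand by 989 bases. Per length, Slc25a24 made up 87.4% of the level of this pair in the brequinar library and 79.0% in the vehicle library. Slc25a23, another relative, had 6 counts in the brequinar library and 52 counts in the vehicle library, or 0.129 and 1.05 CPM. Its mean was below the 1 CPM minimum, so it was not compared, and its ratio of 8.14-fold lower had an interval of 3.50 to 23.2. Slc25a41 had no count in either library.

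Among the citrate and dicarboxylate carriers 1 of 3 compared was called, on the lower side. Slc25a1 (ENSMUSG00000003528.11, chromosome 16, 17925223 to 17928219), the citrate carrier that delivers acetyl groups for lipid synthesis in the cytosol, had 1187 counts or 25.6 CPM in the brequinar library, against 2657 counts or 53.7 CPM in the vehicle library. It was 2.10-fold lower (interval 1.96 to 2.25), so the interval reached inside 2-fold. Slc25a10, the carrier of malate and succinate, had 39.1 CPM in the brequinar library and 36.1 CPM in the vehicle library (ratio 1.08, interval 1.02 to 1.16). Per length, Slc25a1 made up 51.0% of the level of Slc25a1 and Slc25a10 in the brequinar library and 70.4% in the vehicle library. With the longest transcript as the length, Slc25a1 had 30.4 TPM and Slc25a10 38.4 TPM in the brequinar library. In the vehicle library they had 70.9 and 39.2 TPM, so which is larger with brequinar depends on the length used. Slc25a11, the oxoglutarate carrier of the malate-aspartate shuttle, had 114 CPM in the brequinar library and 96.5 CPM in the vehicle library (ratio 1.18, interval 1.14 to 1.23), with Rnf167 overlapping it by 245 bases on the other strand. Slc25a21, an oxodicarboxylate carrier, had 5 counts in the brequinar library and 1 count in the vehicle library.

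No amino acid carrier passed 2-fold among the 6 compared. Slc25a12 and Slc25a13 encode the aspartate/glutamate carriers aralar and citrin, which complete the malate-aspartate shuttle. Slc25a12 had 204 CPM in the brequinar library and 180.3 CPM in the vehicle library (ratio 1.13, interval 1.10 to 1.17), and Slc25a13 had 34.3 CPM in the brequinar library and 39.2 CPM in the vehicle library (1.14-fold lower, interval 1.07 to 1.22). Per length, Slc25a12 made up 75.5% of the level of this pair in the brequinar library and 70.4% in the vehicle library. Slc25a15, the ornithine carrier of the urea cycle, had the lowest ratio of the amino acid carriers, with 12.4 CPM in the brequinar library and 19.5 CPM in the vehicle library (1.58-fold lower, interval 1.42 to 1.75). Slc25a22, a glutamate carrier, had 23.4 CPM in the brequinar library and 19.7 CPM in the vehicle library. Slc25a44, which carries branched-chain amino acids, had 37.9 and 37.1 CPM in the same order, the only compared member whose log2 ratio turned sign with the scaling, and Slc25a29, a carrier of basic amino acids, had 2.52 and 1.96 CPM. Slc25a2 had 6 counts in the brequinar library and 3 in the vehicle library, and Slc25a18 had none in either.

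Slc25a20, the carnitine-acylcarnitine carrier through which long-chain fatty acids reach beta-oxidation, was just within 2-fold. It had 2645 counts or 56.9 CPM in the brequinar library, against 1439 counts or 29.1 CPM in the vehicle library, a ratio of 1.96 (interval 1.84 to 2.09). In a list of 10 genes of the carnitine cycle and beta-oxidation, 9 were compared, 1 was called higher and none lower, with a median log2 ratio of 0.25. The gene called was Cpt1a, which encodes the carnitine palmitoyltransferase that forms acylcarnitines at the outer membrane. It had 188 CPM in the brequinar library and 47.4 CPM in the vehicle library (3.98-fold higher, interval 3.80 to 4.16).

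Of 7 cofactor carriers 1 was called, on the lower side. Slc25a42 (ENSMUSG00000002346.13, chromosome 8, 70184340 to 70212305), a carrier of coenzyme A, had 78 counts or 1.68 CPM in the brequinar library, against 276 counts or 5.58 CPM in the vehicle library. It was 3.32-fold lower (interval 2.57 to 4.33), at a low level in both. Slc25a16, linked to coenzyme A in the matrix, had 33.4 CPM in the brequinar library and 29.6 CPM in the vehicle library. Slc25a26, which imports S-adenosylmethionine, had 5.40 CPM in the brequinar library and 8.23 CPM in the vehicle library (1.52-fold lower, interval 1.297 to 1.79).

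Slc25a51, Slc25a32 and Slc25a17 also lay within 2-fold. Slc25a51, which imports NAD, had 47.2 CPM in the brequinar library and 52.8 CPM in the vehicle library (1.12-fold lower, interval 1.06 to 1.18). Slc25a32, the folate and FAD carrier, had 18.6 CPM in the brequinar library and 15.2 CPM in the vehicle library (ratio 1.23, interval 1.11 to 1.36). Slc25a17, which sits in the peroxisome and not in the mitochondrion, had 59.4 CPM in the brequinar library and 63.1 CPM in the vehicle library.

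The iron, haem and glutathione carriers stayed within 2-fold, with log2 ratios between -0.17 and 0.18 for all 5. Slc25a37 encodes mitoferrin-1, the iron importer of red cell precursors, and had 103 CPM in the brequinar library and 96.0 CPM in the vehicle library (ratio 1.08, interval 1.03 to 1.12). Slc25a28, mitoferrin-2, the more widely expressed importer, had 11.9 CPM in the brequinar library and 13.4 CPM in the vehicle library (1.13-fold lower, interval 1.01 to 1.26). Slc25a38, a glycine carrier that serves the start of haem synthesis, had 16.02 CPM in the brequinar library and 14.1 CPM in the vehicle library (ratio 1.13, interval 1.02 to 1.26). Slc25a39 and Slc25a40 serve glutathione import. Slc25a39 had 100.3 CPM in the brequinar library and 101 CPM in the vehicle library, and Slc25a40 had 6.01 CPM in the brequinar library and 5.34 CPM in the vehicle library, and the intervals of their ratios, 0.953 to 1.03 for Slc25a39 and 0.948 to 1.34 for Slc25a40, include 1.

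Erythroid markers, read beside these carriers because several of them are red cell genes, were at least 2-fold higher in 14 of 14 compared, of 15 listed, among them Car1, Trim10 and Rhag, and none of the 15 was at 0. Their summed level was 296 CPM in the brequinar library and 84.1 CPM in the vehicle library. Alas2, the erythroid enzyme at the start of haem synthesis, had 18.5 CPM in the brequinar library and 3.70 CPM in the vehicle library (5.01-fold higher, interval 4.27 to 5.91). Tfrc, the transferrin receptor, had 188 CPM in the brequinar library and 161 CPM in the vehicle library. In the list of 12 genes of haem and iron-sulphur cluster synthesis, Alas2 alone was called, on the higher side, with a median log2 ratio of -0.09. The part of the erythroid cells in the levels of Slc25a37 and Slc25a38 was not tested.

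Neither of the 2 uncoupling-protein-like carriers compared passed 2-fold. Slc25a30 had 13.1 CPM in the brequinar library and 14.05 CPM in the vehicle library, and Slc25a14 had 4.82 CPM in the brequinar library and 5.03 CPM in the vehicle library. Slc25a27 had 6 counts in the brequinar library and 12 counts in the vehicle library. Slc25a46, an outer membrane member that acts in mitochondrial shape and fission, had 60.8 CPM in the brequinar library and 56.2 CPM in the vehicle library.

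Among members without a settled substrate Slc25a45 had the highest level per length, 60.5 TPM in the brequinar library and 71.3 TPM in the vehicle library. In normalised counts it had 64.9 CPM in the brequinar library and 67.3 CPM in the vehicle library. Slc25a53 had 144 counts or 3.10 CPM in the brequinar library and 307 counts or 6.20 CPM in the vehicle library. It was 2.00-fold lower (interval 1.64 to 2.46) and was not called, because its log2 ratio after the prior count was -0.99, and 3 of the 4 other scalings called it. Slc25a35 had 70 counts or 1.51 CPM in the brequinar library, against 186 counts or 3.76 CPM in the vehicle library (2.49-fold lower, interval 1.89 to 3.33), and was called. Its gene (chromosome 11, 68968131 to 68974365, plus strand, GRCm38) shares 1882 bases with Rangrf on the other strand. Rangrf had 6.11 CPM in the brequinar library and 20.998 CPM in the vehicle library, and since no source here gives the strand setting of the counting, the share of reads that belongs to Slc25a35 is uncertain. Without the members that overlap a compared gene, an alternative chosen after seeing the data, 3 of 32 members were called lower and 1 higher.

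The other members of this group were below the minimum for a comparison. A count of 0 allows a level of up to 0.0646 CPM in the brequinar library and 0.0606 CPM in the vehicle library (3 counts). Slc25a43 had 23 counts in the brequinar library and 28 counts in the vehicle library. Slc25a47 had 27 counts in the brequinar library and 35 in the vehicle library. Slc25a34 had 1 and 5 counts and Slc25a48 had 1 and 2 counts, in the same order, and Slc25a54 had none in either. In all, 12 members of the family were below the minimum.

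**Figure D3:**
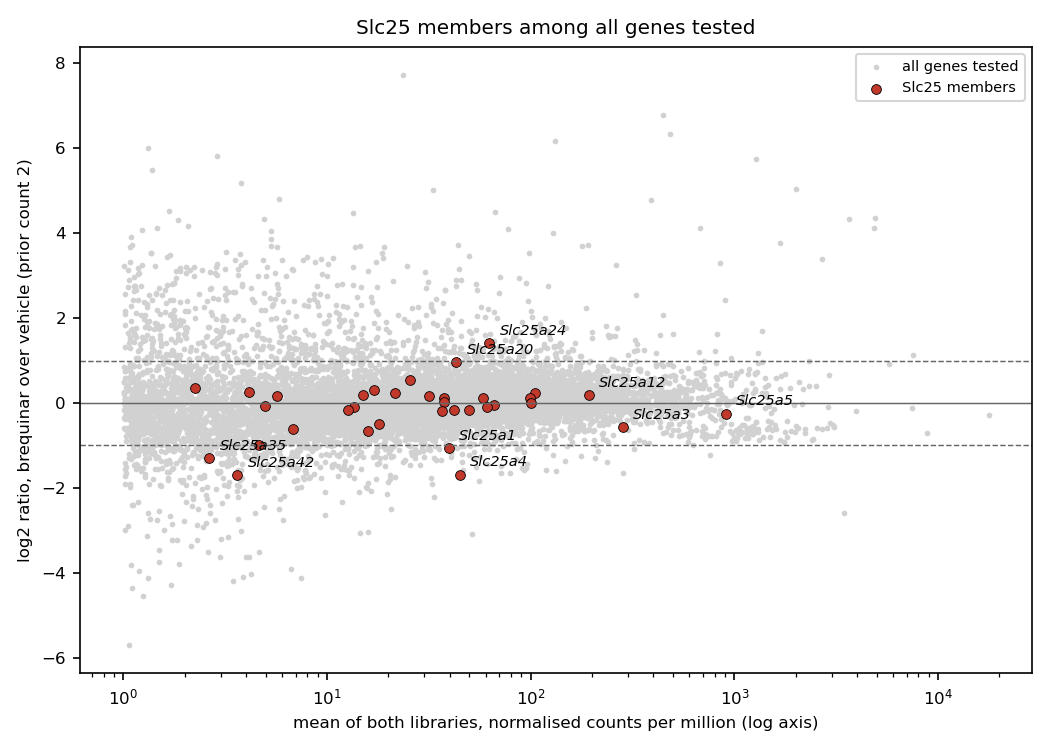
Log2 ratio of brequinar over vehicle (prior count 2) against the mean CPM of both libraries (log axis) for the 11504 genes compared (grey) and the 35 Slc25 members (red). The called members lie between 2.63 and 62.5 CPM on average, and the 5 members above 100 CPM all lie within 2-fold.

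By level, none of the 5 members that averaged 100 CPM or more was called, where 89 of 2185 genes at that level were higher and 14 were lower. Between 20 and 100 CPM, 1 of 16 members was higher and 2 were lower, against 156 and 74 of 4769 genes. Between 5 and 20 CPM none of 8 members was called, against 212 higher and 142 lower of 2529 genes. Between 1 and 5 CPM none of 6 members was higher and 2 were lower, against 285 and 276 of 2021 genes. The members lie on all autosomes but chromosome 1 and on the X chromosome, which holds 4 (Slc25a5, Slc25a14, Slc25a43 and Slc25a53).

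Related carriers that do not have an Slc25a symbol were also read. Ucp2, the uncoupling protein of blood cells, had 919 CPM in the brequinar library and 819 CPM in the vehicle library. Mtch1 and Mtch2 are outer membrane relatives, of which Mtch2 inserts proteins into that membrane. Mtch1 had 83.4 CPM in the brequinar library and 97.6 CPM in the vehicle library, and Mtch2 had 113 CPM in the brequinar library and 92.9 CPM in the vehicle library. Ucp1 and Ucp3, the forms of brown fat and muscle, had 0 and 7 counts in the brequinar library and 3 and 9 counts in the vehicle library. None of the 3 compared was called, with a median log2 ratio of 0.17.

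The machinery that imports carriers into the inner membrane stayed within 2-fold, with none of 13 genes called and a median log2 ratio of -0.14. Timm22, the channel-forming subunit of the carrier translocase, had 35.9 CPM in the brequinar library and 40.5 CPM in the vehicle library. Tomm20, a receptor at the outer membrane, had the lowest ratio of the list, with 74.1 CPM in the brequinar library and 105 CPM in the vehicle library. Among 18 other mitochondrial transporters, 17 were compared, with 1 higher, none lower and a median of 0.11. The gene called was Mpc2, a subunit of the mitochondrial pyruvate carrier, with 61.2 CPM in the brequinar library and 27.2 CPM in the vehicle library (2.25-fold higher, interval 2.11 to 2.41). Its partner subunit Mpc1 had 43.1 CPM in the brequinar library and 46.4 CPM in the vehicle library.

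Enzymes on either side of the carriers were read as well. None of 10 compared shuttle and citrate export enzymes, of 11 listed, was called (median 0.17), and Acly, the ATP citrate lyase that uses exported citrate, had 369 CPM in the brequinar library and 455 CPM in the vehicle library. Of 15 genes of mitochondrial nucleotide supply and DNA upkeep, 14 were compared, with 1 higher, 1 lower and a median of -0.12. Cmpk2, a mitochondrial pyrimidine nucleotide kinase that is also induced by interferon, had 64.4 CPM in the brequinar library and 28.9 CPM in the vehicle library (2.23-fold higher, interval 2.09 to 2.37). Nme4, the nucleoside diphosphate kinase of mitochondria, had 16.04 CPM in the brequinar library and 35.5 CPM in the vehicle library (2.21-fold lower, interval 2.03 to 2.41).

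**Figure D4:**
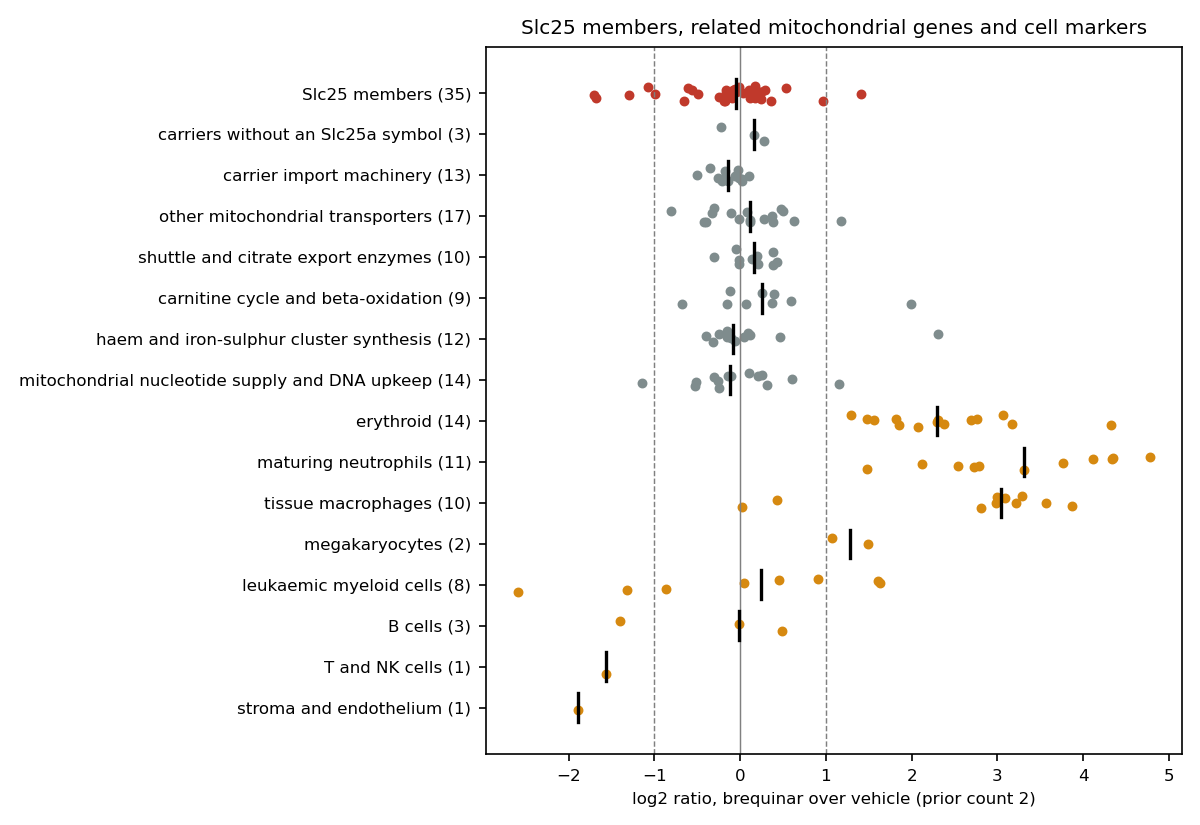
Log2 ratios of brequinar over vehicle (prior count 2) of the Slc25 members, of related mitochondrial gene lists and of cell markers. Each point is a gene with a mean of at least 1 CPM, bars are medians, numbers in brackets are genes compared and dashed lines mark 2-fold. The members centre at -0.05, and the erythroid and maturing neutrophil markers at 2.30 and 3.31.

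Markers of other cells were read as a check of the sort. Tissue macrophage markers were at least 2-fold higher in 8 of 10 cases, led by Mrc1, Cd163, Axl and C1qc, and none was at 0. Mrc1 had 9.99 CPM in the brequinar library and 0.647 CPM in the vehicle library, and the list summed to 846 CPM in the brequinar library and 604 CPM in the vehicle library. Most of that sum came from the markers within 2-fold, Vcam1 with 496 CPM in the brequinar library and 369.6 CPM in the vehicle library, and Adgre1 with 225 and 221 CPM in the same order. Of 5 megakaryocyte markers 2 were compared and both were higher (Gp9 and Itga2b). Below the minimum, Pf4 had 41 counts in the brequinar library and 1 in the vehicle library, and Gp1bb had 52 and 5 in the same order. Ppbp had 2 counts in the brequinar library and was at 0 in the vehicle library. Of 5 B cell markers 3 were compared, and Cd79b was at least 2-fold lower. Of 6 markers of T and NK cells 1 was compared, Nkg7, with 346 counts in the brequinar library and 1091 counts in the vehicle library. The markers of this list below the minimum went both ways. Cd4 had 74 counts in the brequinar library and 9 in the vehicle library. In the same order, Cd3d had 25 and 12, Cd3g had 10 and 6, Cd8a had 4 and 6, and Cd3e had 3 and 4. Of 6 markers of stroma and endothelium 1 was compared, Pecam1, with 314 counts in the brequinar library and 1242 counts in the vehicle library. Below the minimum, the other markers of this list also went both ways. Lepr had 31 counts in the brequinar library and 4 in the vehicle library. In the same order, Col1a1 had 47 and 16, Cxcl12 had 36 and 60, Kdr had 4 and 10, and Cdh5 had 5 and 7. The part of these cells in the values of the carriers was not tested.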

How the data were processed

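Poly(A)-selected, strand-preserving libraries were read as paired ends of 101 bases, per the labels' protocols. The authors deposited raw read counts by gene, as whole numbers. The submitters' processing notes name STAR 2.4.2a, Picard 1.99 and 2.2.4 and build mm10. What counted the reads, with which strand setting and annotation, is not given in the sources used here. Lines that name no gene held 20.2% of reads in the brequinar library and 21.6% in the vehicle library and were left out. Symbols, coordinates and exon lengths came from GENCODE mouse release 21 (GRCm38), matched by identifier.

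TMM factors over the whole table came from edgeR 4.0.16 in R 4.3.3 (0.969 for brequinar and 1.03 for vehicle). Ratios used a prior count of 2, and genes averaging 1 CPM or more were compared. The steps were tested on simulated counts. Alternatives covered scaling (DESeq2 1.42.0 and others), filters, prior counts and thresholds. The members, gene lists and roles were chosen with earlier results of these data known. Any Slc25a member could be named, and from each list the genes called, or the 4 with the largest ratios where more were called, besides Ucp2, Mtch1, Mtch2, Mpc1, Mpc2, Dhodh, Alas2 and Tfrc. Ucp1, Ucp3, Ppbp, Vcam1, Adgre1, Timm22, Tomm20 and Acly were named in addition, after their values were seen. So were Pf4, Gp1bb, Cd4, Cd3d, Cd3g, Cd8a, Cd3e, Lepr, Col1a1, Cxcl12, Kdr and Cdh5. The values of 1 member and 1 marker are not reported here, though both count in the totals. Other software was Python 3.11.15, numpy 2.4.6, pandas 2.3.3, scipy 1.17.1 and matplotlib 3.10.9.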

Additional observations from a re-analysis of the deposited data

How the results depend on the processing

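The call of Slc25a24 as higher and of Slc25a4 as lower held under every scaling, filter, prior count and threshold tried. Across the 4 other scalings 4 or 5 of 35 members were lower, the fifth being Slc25a53, against 510 to 632 of at least 11504 genes. The members' median log2 ratio ran from -0.14 to -0.06. Without a filter, 2470 of 21287 genes and 2 of 44 members were higher, and 2074 genes and 6 members were lower. Among genes averaging 5 CPM or more, 457 of 9483 genes and 1 of 29 members were higher. On the lower side were 230 genes and 2 members, Slc25a4 and Slc25a1, since the others are below that level. The other thresholds kept the 11504 genes and 35 members. At 1.5-fold, 1456 genes and 2 members were higher, and 1463 genes and 7 members were lower. With the whole counting interval beyond 2-fold, 600 genes and 1 member were higher, and 288 genes and 2 members were lower, Slc25a4 and Slc25a42. With the interval beyond 1, 4508 genes and 12 members were higher, and 4342 genes and 15 members were lower. That interval thus excluded 1 for 8850 of 11504 genes and 27 of 35 members. Of 210 values of single members over 6 alternatives, 188 moved less than the distance from middle to end of their log2 counting interval. No called member turned sign, while Slc25a44, near even, did. No paired analysis was possible because each treatment has 1 library. Differences between mice cannot be told apart from the treatment.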
